A study of Mus musculus with 12 samples.

Results

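Osteoclast programme genes were followed in RAW264.7 cells, a mouse macrophage line that can form osteoclasts, the multinucleated cells that resorb bone. The 10 genes, chosen by name, were Tnfrsf11a, Nfatc1, Dcstamp, Ocstamp, Oscar, Acp5, Ctsk, Mmp9, Atp6v0d2 and Calcr, out of 35944 genes with a listed transcript. Polyadenylated RNA had been sequenced in 12 libraries after 48 h with extracellular vesicles (EVs) at 3 µg protein/ml, and the EVs came from the mouse endothelial line MS-1. A miRNA mimic had been electroporated into the EVs, and each of the 4 groups held 3 libraries. Cells of the control group (ctrl-EVs) received a worm miRNA mimic, cel-miR-67 by the methods. The other groups received mimics of the mouse miRNAs miR-222-3p, miR-183-5p and miR-142-5p, and are called by the mimic (for example miR-222-3p-EVs). All 4 groups thus shared the medium, which held EV-depleted serum, and the exposure to endothelial EVs. No library of cells without EVs was analysed here, and no osteoclast-inducing factor is named among the treatments. The sample titles number the libraries of each group 1 to 3, called the title number below. What a shared number stands for is not stated, nor whether the libraries came from separate cultures, so p-values measure the spread between these libraries, which may be technical.

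Osteoclasts arise from macrophage precursors when the cytokine RANKL binds its receptor RANK, the product of Tnfrsf11a. RANK signals through TRAF6 to NF-κB and AP-1, and, with calcium signals from ITAM-coupled receptors such as OSCAR, switches on NFATc1, the transcription factor that drives the rest of the programme. DC-STAMP and OC-STAMP then serve the fusion of precursors, a proton pump acidifies the space under the cell, and TRAP (Acp5), cathepsin K and MMP9 act on bone matrix.

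The miRNAs that the mimics stand for are shown first, because the mimics set the 3 miR-EV groups apart from ctrl-EVs. The sequences are the mature mouse forms in RefSeq (build GRCm38.p6), not those of the synthetic mimics, which can differ at the 3′ end. They are written 5′ to 3′, with the seed, bases 2 to 8, in capitals. The 3 seeds differed from each other.
miR-142-5p: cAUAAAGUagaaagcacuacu
miR-183-5p: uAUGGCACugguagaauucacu
miR-222-3p: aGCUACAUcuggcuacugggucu
They are encoded at chr11:87756867-87756887 (+), chr6:30169711-30169732 (−) and chrX:19146901-19146923 (−), in that order.

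The 3′ UTR taken was that of the most abundant coding transcript with one annotated. In it 4 of the 10 genes held the 7-base complement of the miR-142-5p seed (ACTTTAT, sense strand). So did 13.7% of 13079 genes with an annotated 3′ UTR that reached the minimum count (below). Of the 10, Oscar and Calcr did not reach it, and 3′ UTR length was not matched, so no enrichment is shown. No gene of the 10 held the complement of the miR-183-5p seed (GTGCCAT, in 8.95% of genes) or of the miR-222-3p seed (ATGTAGC, in 9.24%). The matches are shown with 11 bases on either side, in the GENCODE vM21 transcripts of GRCm38, with the match in capitals. A match describes these letters and is no shown site of binding.
Tnfrsf11a, base 3095 after the stop codon: agattattaaaACTTTATttttccataaa
Ocstamp, base 913: acctagagttgACTTTATatagctctggc
Oscar, base 175: taatgttagtgACTTTATcctcccttgaa
Atp6v0d2, base 623: ggttctgtcatACTTTATtccagaaaatc
Atp6v0d2, base 652: caactaattgtACTTTATtccttcagaag
The Tnfrsf11a match lay near the end of a 3′ UTR of 3115 bases, while those of Ocstamp, Oscar and Atp6v0d2 lay inside 3′ UTRs of 2086, 951 and 1378 bases.

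The 250 bases before the RefSeq start (GRCm38.p6, + strand) are shown for Tnfrsf11a, the receptor, and Ctsk, the collagen-cleaving protease, both of which were highest in the libraries numbered 2 (below). Capitals mark the core letters of PU.1 (GAGGAA or TTCCTC).
Tnfrsf11a, chr1:105780473-105780722: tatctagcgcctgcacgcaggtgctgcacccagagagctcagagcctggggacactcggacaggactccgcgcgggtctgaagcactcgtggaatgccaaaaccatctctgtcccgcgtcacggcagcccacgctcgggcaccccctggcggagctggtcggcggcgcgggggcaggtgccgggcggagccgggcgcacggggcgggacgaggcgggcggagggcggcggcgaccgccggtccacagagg
Ctsk, chr3:95498960-95499209: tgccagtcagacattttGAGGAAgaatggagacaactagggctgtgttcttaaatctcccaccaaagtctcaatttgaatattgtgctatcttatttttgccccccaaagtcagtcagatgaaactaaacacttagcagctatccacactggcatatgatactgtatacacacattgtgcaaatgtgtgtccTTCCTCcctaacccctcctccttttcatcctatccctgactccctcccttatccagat
The Tnfrsf11a stretch was 73.6% G or C with 31 CpG dinucleotides, and the Ctsk stretch was 43.2% G or C with 0 CpG dinucleotides. Within the full window, which ends 50 bases after the start, Ctsk held 2 PU.1 cores and 1 NFAT core (GGAAA, either strand) and Tnfrsf11a held neither. Of 32851 promoters of this length 28.3% held a PU.1 core and 61.3% an NFAT core. Promoters were also listed for Acp5, Oscar and Calcr, and were not used here for the others.

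The programme was present at its upper end, the receptor and the transcription factor, and most of its effectors were low but counted. Only Oscar and Calcr lay near the limit of detection in most libraries. Levels are given as TPM, a transcript abundance scaled for length and library, so that genes can be compared. Nfatc1 was the highest, at 25.0 ± 3.15 TPM (SD, n = 12 libraries), a value above that of 59.6% of the 13923 genes tested. Mmp9, the gelatinase of the programme, was at 12.1 ± 3.54 TPM and Tnfrsf11a at 10.4 ± 2.49 TPM. The lowest Nfatc1 library, 19.4 TPM, lay just above the highest Mmp9 library, 19.3 TPM. Mmp9 and Tnfrsf11a overlapped, from 7.90 to 19.3 and from 6.34 to 14.2 TPM, and Mmp9 was the higher of the pair in 8 of 12 libraries.

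The fusion and resorption genes lay lower, and neighbours in the order overlapped from Dcstamp downwards. Dcstamp was at 2.15 ± 1.73 TPM, and its highest library, 5.45 TPM, was below the lowest of Tnfrsf11a. Acp5 was at 0.951 ± 0.492 TPM, Ocstamp at 0.730 ± 0.148 TPM and Ctsk at 0.520 ± 0.275 TPM. Atp6v0d2, the osteoclast form of a proton pump subunit, was at 0.331 ± 0.130 TPM. These levels rested on few read pairs, namely 5 to 18 estimated counts per library for Acp5, 3 to 20 for Ctsk, 26.1 to 61.8 for Ocstamp and 1.33 to 17.3 for Atp6v0d2. Of the Acp5 TPM, 0 to 1.19 per library lay in a processed transcript of 399 bases, on 0 to 4 counts. Of the Dcstamp TPM, 0 to 4.21 lay in a coding transcript of 345 bases, on 0 to 10 counts. The places of Acp5 and Dcstamp in the order thus rest in part on short transcripts with few counts. Oscar, the collagen receptor that signals through an ITAM partner, had 0 to 6 counts per library, and 8 of 12 libraries were at or under the floor of 3 counts. Calcr, the calcitonin receptor of mature osteoclasts, had 0 to 2 counts and 0 in 8 of 12 libraries, where 3 counts would be 0.131 to 0.184 CPM, that is counts scaled to the library total. Calcr was thus not detectable at this depth, and Oscar was above the floor in 4 of 12 libraries, with 31 counts in all. A minimum of 10 counts in 3 libraries was met by 8 of the 10 genes, all but Oscar and Calcr.

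**Figure D1:**
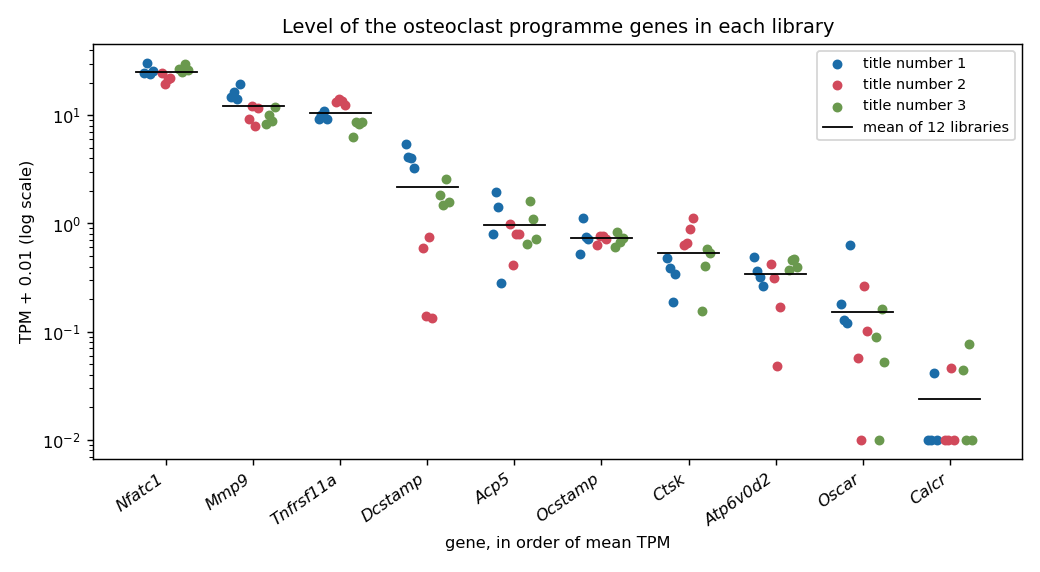
TPM + 0.01 (log scale) of each gene in each of the 12 libraries, with genes in order of their mean and points coloured by title number. The bar is the mean of 12 libraries, from 25.0 TPM for Nfatc1 down to 0.0141 TPM for Calcr, and the points of Dcstamp and Tnfrsf11a separate by title number.

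The genes around RANK were mostly present, while the ligand was not. Of 36 listed genes of RANK signalling 33 were tested and 32 had a mean of at least 1 TPM. Spi1, which encodes PU.1 and had the highest mean of the list, was at 94.8 TPM, and Traf6, the adaptor of RANK, was at 19.2 TPM. Tnfsf11, which encodes RANKL, and Tnfrsf11b, its decoy receptor osteoprotegerin, were at or under 3 counts in 12 of 12 libraries. Prdm1, which encodes the repressor BLIMP1 and lies downstream of RANK, was at 0.243 TPM.

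General lysosomal and proton pump genes were high, unlike the osteoclast forms among the 10. All 34 genes listed for acid secretion and resorption were tested, and their median of mean TPM was 86.7. Ctsd, a lysosomal aspartic protease, led that list at 1389 TPM, against 0.520 TPM for Ctsk. Atp6v0d1, the widely expressed counterpart of Atp6v0d2, was at 133 TPM, which was 401 times the mean of Atp6v0d2 and at least 231 times its level in each library. Itgb3, a subunit of the osteoclast integrin, was at 1.10 TPM and Src, a kinase needed for the ruffled border, at 0.514 TPM. Other genes of that list were higher, among them Car2 at 1081 TPM, Tcirg1 at 152, Snx10 at 52.5, Clcn7 at 37.25 and Ostm1 at 23.5 TPM. Low levels were thus not a trait of the genes listed for acid secretion and resorption as a set.

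Of the 25 names listed for fusion and costimulation 23 were in the files, and 21 of these were tested. Tyrobp, the ITAM adaptor DAP12, led them at 828 TPM, while its receptor partner Trem2 was at 13.1 TPM. Of 21 genes known to restrain osteoclast formation 20 were tested, among them Ptpn6, the phosphatase SHP-1, at 274 TPM and Irf8 at 18.4 TPM. These lists were chosen with earlier results of the data known.

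**Figure D2:**
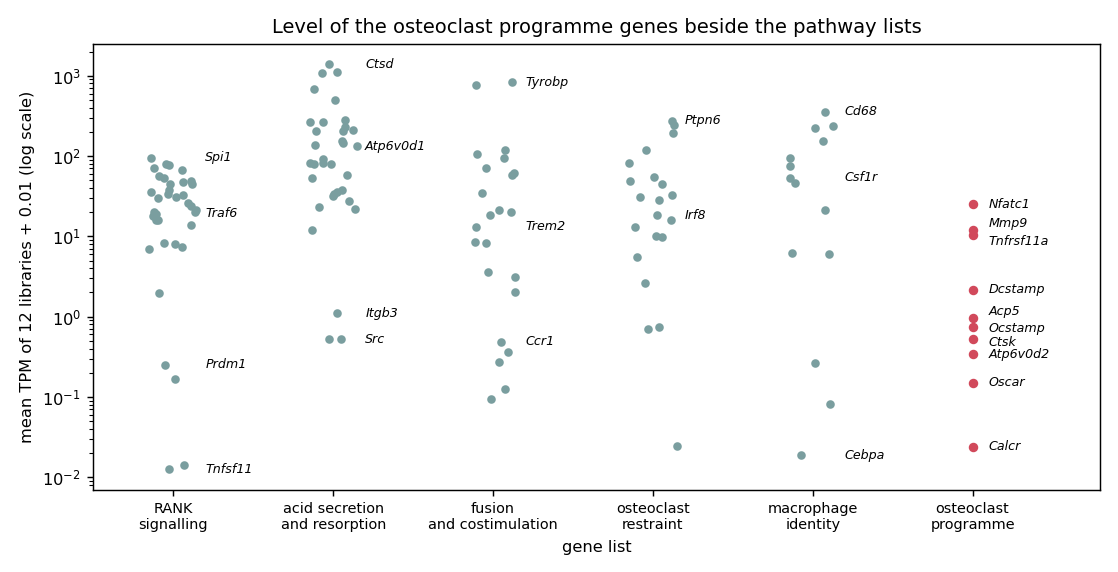
Mean TPM of 12 libraries + 0.01 (log scale) for each gene of the 5 pathway lists, one column per list, and for the 10 osteoclast programme genes at the right. The 3 highest programme genes lie among the signalling genes, and the others lie at or below 2.15 TPM.

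The cells carried most of the listed macrophage genes, and the markers of other sources were mostly near 0. Of 14 macrophage identity genes 11 were tested, led by Cd68 at 355 TPM, and the summed level of the 14 was 1054 to 1422 TPM per library. Adgre1 was at 6.13 TPM, and the untested Cebpa, Mertk and Msr1 were at 0.0087, 0.0725 and 0.255 TPM. Of 10 osteoblast markers 4 were tested, and Spp1, which macrophages and osteoclasts also make, held nearly all of the summed 530 to 1074 TPM, at 790 TPM on average. The osteoblast genes Alpl, Ibsp and Sp7 were at 0, 0.00804 and 0.0323 TPM. Runx2, Col1a1 and Dmp1, which were tested, were low but counted, at 0.182, 0.299 and 0.236 TPM. Of 10 endothelial markers, listed because the EVs came from endothelial cells, 5 were tested and their sum was 5.19 to 9.70 TPM, with Pecam1 at 3.26 TPM, Cldn5 at 0 and Vwf at 1.25, 1.25 and 4.13 TPM in title numbers 1, 2 and 3. The summed endothelial level was 5.19 to 7.02 TPM in ctrl-EVs libraries and 5.44 to 9.70 TPM in miR-EVs libraries.

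The libraries grouped by title number far more than by EV treatment. Totals were 16294611 to 22974853 estimated counts, with the libraries numbered 2 the shallowest of each group. A likelihood ratio test in DESeq2, with treatment in the model, called 69.4% of all tested genes across the 3 title numbers. Transcripts annotated as retaining an intron held 7.57% to 8.53% of TPM in the libraries numbered 2 and 5.48% to 6.28% in the others, and mitochondrial genes held 4.85% to 5.38% of counts against 3.45% to 4.59%. The part of these differences in the results below was not tested.

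Across title numbers 4 of the 8 tested genes were called, beside 69.4% of all genes. They were Tnfrsf11a (adjusted p = 3.96e-25, DESeq2 likelihood ratio test), Mmp9 (4.24e-12), Dcstamp (1.01e-10) and Ctsk (0.0376). With 8 genes the shares cannot be ranked, and of those not called Acp5, Ocstamp and Atp6v0d2 rested on few counts. In bulk RNA fewer cells of a type and less RNA per cell cannot be told apart, and what the numbers stand for is not known. Number 2 against number 1 called 2 of the 8 higher and 2 lower, against 28.0% and 30.0% of all genes. Number 3 against number 1 called 0 higher and 3 lower, against 10.5% and 12.9%. Number 3 against number 2 called 1 higher and 3 lower, against 31.0% and 30.7%. The count of 0 in number 3 against number 1 was 0 also at an unadjusted p and in edgeR.

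Tnfrsf11a, the receptor through which RANKL acts, was highest in the libraries numbered 2 and lowest in those numbered 3. In normalized counts, which are corrected for depth and transcript length, it was 578, 611, 671 and 585 in number 1 (ctrl-EVs first, then the miR-142-5p mimic, the miR-183-5p mimic and last the miR-222-3p mimic, the order used below). It was 899, 992, 1002 and 886 in number 2. It was 407, 494, 466.1 and 492 in number 3. The order 2, 1, 3 thus held in 4 of 4 treatments, and the 3 numbers did not overlap. The share of all tested genes whose numbers stayed apart was not counted, for this gene or for those below. Such separation is therefore not shown to be particular to them.

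The log2 difference of Tnfrsf11a was 0.63 ± 0.09 (SE) for number 2 against 1 (adjusted p = 2.18e-10, DESeq2) and −0.40 ± 0.10 for number 3 against 1 (adjusted p = 4.62e-04). Number 3 against 2 gave −1.02 ± 0.10, or 2.03-fold lower (adjusted p = 2.97e-25). These calls held in edgeR and without any 1 library. Part of the gene's TPM lay in 2 transcripts that retain an intron, 7.44% to 34.7% in number 2 and 6.44% to 16.6% in the others. The coding transcript alone was at 8.36 to 9.69 TPM in number 1, 9.27 to 12.3 in number 2 and 5.92 to 8.07 in number 3, so that numbers 1 and 2 overlapped on this measure.

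Over the 12 libraries, the genes whose normalized counts ran most like those of Tnfrsf11a, among 10868 genes compared, were Ptprj (Pearson r = 0.988), Napg (0.986) and Thra (0.983). The points share libraries and depth.

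Among the other genes of RANK signalling 25 of 33 were called across title numbers, beside 69.4% of all tested genes. The largest ranges among well-counted ones were those of Csf1r, Csf1 and Fos. Csf1r, the receptor for the survival factor M-CSF, was at 84.0, 23.8 and 53.6 TPM on average in numbers 1, 2 and 3. Its order thus ran 1, 3, 2, with number 2 lowest where Tnfrsf11a was highest. Csf1, which encodes M-CSF, was at 5.89, 3.51 and 11.2 TPM, and Fos, a component of AP-1 that is needed for osteoclasts, at 17.2, 8.26 and 22.3 TPM. Spi1 was likewise lowest in number 2, at 52.2 TPM against 109 and 123 TPM. The list values here and below are TPM, while the fits use counts corrected for depth and transcript length, and the scales can differ. Nfatc1, for example, was at 26.2 TPM on average in number 1 and 21.9 in number 2, at a fitted log2 difference of −0.08.

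Nfatc1 did not change detectably as a gene. Its normalized counts were 1437, 1736, 1396 and 1496 in number 1. They were 1542, 1264, 1482 and 1474 in number 2, and 1621, 1336, 1561 and 1397 in number 3. The numbers overlapped, and the likelihood ratio test gave an adjusted p of 0.797 (DESeq2). The difference was −0.08 ± 0.11 on the log2 scale for number 2 against 1 and 0.04 ± 0.11 for number 3 against 2. The most alike genes, Lrrc25, 9530077C05Rik and Phf19, reached only r = 0.788, 0.761 and 0.761 over the 12 libraries.

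Within that total the share of Nfatc1 transcripts by 3′ end differed between title numbers. The gene lies on the minus strand at chr18:80606205-80713071 (GRCm38), and 2 of its 6 coding transcripts end at a proximal site, base 80647435. The other 4 end 41230 bases further on, at base 80606205. The forms that use the proximal end are known as the short ones for their protein. Their transcripts are of like length, at 4505 and 4797 bases against 4315 to 4604 for the distal ones. The proximal end held 26.5%, 37.7%, 34.6% and 36.7% of coding TPM in number 1. It held 56.5%, 59.4%, 73.9% and 69.5% in number 2, and 19.3%, 18.1%, 17.0% and 19.5% in number 3. The 3 numbers did not overlap, and the order 2, 1, 3 was that of Tnfrsf11a, though how common such a pattern is among other genes was not counted.

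The mean shares were 33.9% ± 5.06, 64.8% ± 8.23 and 18.5% ± 1.17 (SD, n = 4 each). This comparison was chosen after the values were seen, so no test is given. The proximal forms rested on 249.3 to 963.3 estimated counts per library and the distal ones on 339.5 to 1508. Salmon divides reads that fit several transcripts by an estimate, so that the shares are estimates too. In TPM the proximal forms ran from 11.5 to 15.01 in number 2 and from 4.15 to 5.17 in number 3, and the distal forms from 5.29 to 9.89 and from 17.4 to 22.1. By treatment the mean share was 34.1% ± 19.7 in ctrl-EVs and 38.4% ± 20.7, 41.9% ± 29.1 and 41.9% ± 25.4 in the 3 miR-EV groups (SD, n = 3), which overlapped. Within numbers 1 and 2 the 6 miR-EV libraries lay above the ctrl-EVs library of their number, and in number 3 only that of miR-222-3p-EVs did, differences that were not tested.

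**Figure D3:**
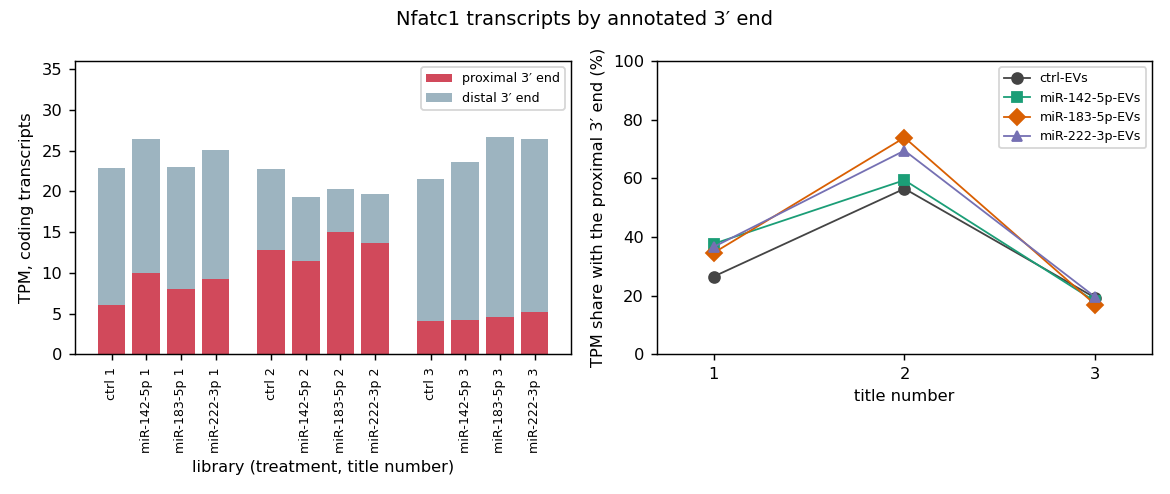
Left, TPM of Nfatc1 coding transcripts in each library, split by annotated 3′ end. Right, the share with the proximal end (%) by title number, one line per EV treatment, which peaks in number 2 at 56.5% to 73.9% in all 4 treatments.

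Dcstamp, which encodes a membrane protein needed for precursor fusion, had the widest range among the 8 genes. It was counted 40, 51, 47 and 41 times in number 1, 3, 3, 8 and 2 times in number 2, and 19, 15, 25 and 18 times in number 3. Summed over the 4 treatments the estimated counts were 179, 16 and 77. The numbers did not overlap, and 3 of the 4 libraries numbered 2 were at or under the floor of 3 counts.

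On the normalized scale Dcstamp fell by 3.53 ± 0.53 log2 units in number 2 against 1 (adjusted p = 1.58e-10, DESeq2), or 11.5-fold. It fell by 1.30 ± 0.41 in number 3 against 1 (adjusted p = 0.0113), a call that was kept in 6 of 12 fits that each left out 1 library. Number 3 against 2 gave 2.23 ± 0.54 (adjusted p = 1.09e-04). Much of its TPM came from a coding transcript of 345 bases, 55.9% to 77.3% in number 1, on only 5 to 10 counts. Without the length correction the calls remained.

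Ocstamp, the related fusion gene, was steadier. Its normalized counts were 26.1 to 55.3 in number 1, 33.9 to 45.0 in number 2 and 30.6 to 38.5 in number 3, which overlapped (adjusted p = 0.666, DESeq2 likelihood ratio test). Of the other fusion and costimulation genes 18 of 21 were called, beside 69.4% of all genes. Sirpa, a receptor for CD47 with a part in macrophage fusion, was at 103, 40.7 and 176 TPM in numbers 1, 2 and 3, in the order 3, 1, 2. Cx3cr1 was at 2.62, 2.46 and 0.904 TPM, and Myo10, an unconventional myosin, at 3.96, 3.61 and 1.80 TPM. In the fits neither was lower in number 2 than in number 1, at log2 differences of 0.19 and 0.05 (adjusted p = 0.650 and 0.826, DESeq2). Oscar, with 15, 9 and 7 counts in all in numbers 1, 2 and 3, was not tested.

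Mmp9 was higher in number 1 than in the others. It was at 515, 560, 487 and 676 normalized counts in number 1. It was at 343, 469, 323 and 465 in number 2, and at 298, 322, 279 and 373 in number 3. Number 1 lay above both others in 4 of 4 treatments without overlap, while numbers 2 and 3 overlapped although number 3 was the lower in 4 of 4.

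The log2 difference of Mmp9 was −0.49 ± 0.11 for number 2 against 1 (adjusted p = 2.23e-05, DESeq2). Without the length correction it was −0.21 with an adjusted p of 0.180, so that this call rests on the correction. Number 3 against 1 gave −0.81 ± 0.11 (adjusted p = 1.80e-11) and number 3 against 2 −0.32 ± 0.11 (adjusted p = 0.00841). Without miR-142-5p-EVs replicate 2 or replicate 3 the last had an adjusted p of 0.0925 and 0.0616. The full-length coding transcript alone was at 12.5 to 13.5, 7.34 to 12.0 and 4.28 to 7.07 TPM in numbers 1, 2 and 3, with no overlap. The genes running most like Mmp9 were Tle6 (r = 0.909), Grin1 (0.894) and Rnf183 (0.890).

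Ctsk, the main collagenase of bone resorption, was low everywhere and highest in number 2. It was counted 9, 8, 4 and 7 times in number 1, 11, 11, 17 and 20 times in number 2, and 3, 7, 12 and 10 times in number 3. Its normalized counts were 3.39 to 9.01, 12.9 to 24.2 and 2.84 to 9.96, so that number 2 stood apart. The difference was 1.40 ± 0.60 on the log2 scale for number 2 against 1 (adjusted p = 0.0344, DESeq2) and −1.30 ± 0.59 for number 3 against 2 (adjusted p = 0.0466). With so few counts the calls were fragile, and across title numbers the call was kept in 1 of 12 fits that each left out 1 library.

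Acp5, the phosphatase used to stain osteoclasts, and Atp6v0d2 did not pass the test across title numbers (adjusted p = 0.976 and 0.457, DESeq2). Acp5 ranged from 3.22 to 22.5 normalized counts in number 1 alone. Atp6v0d2 was at 9.17 to 17.0 in number 1, 1.15 to 15.2 in number 2 and 11.7 to 14.1 in number 3. Its number 2 value was below number 1 in 4 of 4 treatments, with overlap.

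Of the 34 genes of acid secretion and resorption 29 were called across title numbers, beside 69.4% of all genes. Number 3 against number 2 called 22 of them higher and 7 lower, beside 31.0% and 30.7% of all genes. The proton pump subunits Atp6v0a1 and Atp6v1c1 were at 21.97 and 56.3 TPM in number 1, 14.9 and 32.1 in number 2, and 45.5 and 84.3 in number 3. Itgb3 was at 0.693, 0.612 and 1.995 TPM. Ctsd rose in number 3, at 1110, 1229 and 1827 TPM, an order in which Ctsk was 0.341, 0.813 and 0.408 TPM.

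Among genes that restrain osteoclasts 16 of 20 were called, beside 69.4% of all genes. Bcl6, a repressor of osteoclast genes, was at 20.7, 61.2 and 9.89 TPM in numbers 1, 2 and 3, the order of Tnfrsf11a. Ndrg1 was at 217, 406 and 106 TPM, in the same order. Lgr4, another receptor for RANKL that opposes RANK, was at 3.85, 8.65 and 4.11 TPM. Of the macrophage identity genes 8 of 11 were called, beside the same 69.4%, with Fcgr1 at 58.0, 11.2 and 69.6 TPM and Cd14 at 107, 37.8 and 138 TPM. Their summed level was 1054 to 1082 TPM in number 2 and 1320 to 1422 TPM in the others, and the part of this in the levels of the 10 genes was not tested.

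**Figure D4:**
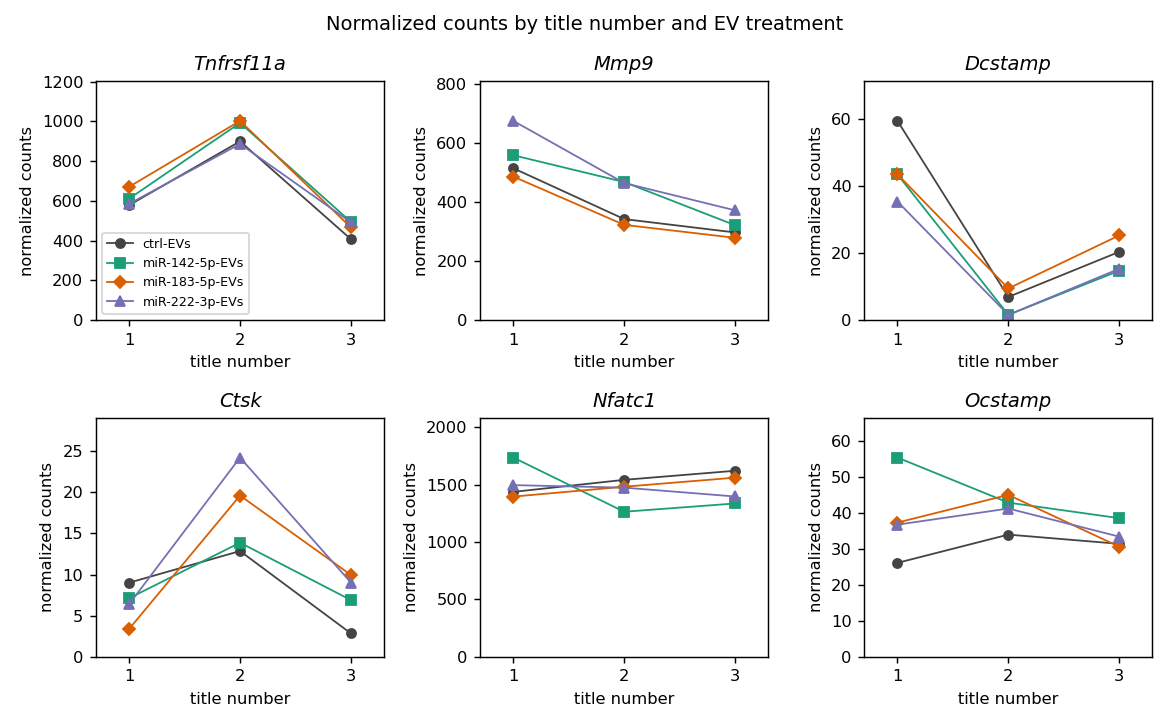
Normalized counts of 6 of the 10 genes by title number, one line and symbol per EV treatment, on axes that start at 0. Tnfrsf11a and Ctsk peak in number 2, Dcstamp dips there, Mmp9 is highest in number 1, and Nfatc1 and Ocstamp overlap.

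Set against these differences, the genes did not pass the test in any comparison between EVs that carried a miRNA mimic and ctrl-EVs. DESeq2 called 0 of the 8 genes with miR-142-5p-EVs, where 0.00718% of all tested genes were called. For miR-183-5p-EVs, for miR-222-3p-EVs and for the 3 miR-EV groups pooled it also called 0 of 8, where 0% of tested genes were called each time. None of the 8 had an unadjusted p under 0.05 in these fits, the lowest adjusted p was 0.9998, and edgeR called 0 too. The same 0 held for the 5 pathway lists, whose counts at an unadjusted p under 0.05 were 0 or 1 a list. The 3 comparisons share the ctrl-EVs libraries and are given side by side.

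Libraries of the same number deviated together, so the number was also fitted as a replicate block. With the block 0.0575% of genes passed for miR-142-5p-EVs, 0.417% with the miR-183-5p mimic, 0.0359% with miR-222-3p and 1.54% for the pooled miR-EVs, and 0 of the 8 in each. With the block 1 of the 8, Mmp9 with miR-222-3p-EVs, had an unadjusted p under 0.05, and edgeR with the block called 0. In that comparison 910 of all 13923 tested genes had such a p with the block in DESeq2.

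The 4 genes with a miR-142-5p match did not share a direction under miR-142-5p-EVs, and none of the 3 tested passed the test. Tnfrsf11a was at 699 ± 260 normalized counts with miR-142-5p-EVs and 628 ± 250 with ctrl-EVs (SD, n = 3), and was the higher in 3 of 3 title numbers. The log2 difference was 0.15 ± 0.40 (SE), 0.16 ± 0.11 with the replicate block (adjusted p = 0.914, DESeq2) and −0.04 without the length correction. Ocstamp was at 55.3, 42.8 and 38.5 normalized counts with miR-142-5p-EVs and at 26.1, 33.9 and 31.4 with ctrl-EVs, in numbers 1, 2 and 3. These groups did not overlap, though the share of all tested genes without overlap was not counted. The difference of 0.59 ± 0.32 did not pass the test (unadjusted p = 0.0634, adjusted p = 0.9999, DESeq2). Atp6v0d2, with 2 matches, differed by −0.28 ± 0.64, and Oscar, with 1, had 3, 0 and 0 counts against 4, 1 and 2 with ctrl-EVs, lower in 3 of 3 numbers but too low to test.

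Mmp9 differed in sign between the mimics, though none passed the test. With miR-222-3p-EVs it was at 676, 465 and 373 normalized counts in numbers 1, 2 and 3, against 515, 343 and 298 with ctrl-EVs. It was thus the higher in 3 of 3 numbers, by 0.39 ± 0.34 on the log2 scale without the block and 0.39 ± 0.13 with it (unadjusted p = 0.0025, adjusted p = 0.387, DESeq2). With miR-142-5p-EVs the difference was 0.23 ± 0.34 and higher in 3 of 3, and with miR-183-5p-EVs −0.08 ± 0.34 and lower in 3 of 3. These tallies rest on the length correction. In number 3 Mmp9 had 270 estimated counts with miR-222-3p-EVs and 337 with ctrl-EVs, at totals of 20480976 and 20468259, and its full-length transcript was at 5.53 and 6.995 TPM. Without the length correction the difference with miR-222-3p-EVs was 0.16 ± 0.47, and 0.09 ± 0.16 with the block.

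Nfatc1 differed by −0.08 ± 0.15, −0.05 ± 0.15 and −0.08 ± 0.15 on the log2 scale with the mimics in the order above, and by 0.0034, 0.04 and 0.05 without the length correction. Dcstamp differed by −0.55 ± 1.14, −0.15 ± 1.14 and −0.74 ± 1.15, and the second of these was 0.10 ± 0.53 with the block. Without the length correction the 3 values of Dcstamp were 0.07, 0.20 and −0.12, so that no direction can be given for it. For Acp5 the differences were 0.64 ± 0.68, 0.45 ± 0.69 and −0.43 ± 0.70, for Ctsk 0.17 ± 0.85, 0.41 ± 0.84 and 0.68 ± 0.84. Atp6v0d2 was lower than ctrl-EVs in 3 of 3 numbers with miR-222-3p-EVs, without overlap, at −0.71 ± 0.65 (adjusted p = 0.9999, DESeq2). Here too the share of all tested genes without overlap was not counted. Over the 8 genes the median log2 difference for all miR-EVs was 0.16, with 5 above 0 and 3 below, beside a median of 0.01 over all tested genes. For Dcstamp, Acp5, Ctsk and Atp6v0d2 the standard errors of single mimics without the block were at least 0.64, so that a 2-fold change would have been under 2 standard errors and was not detectable here. For the other genes 2 standard errors need not have sufficed either. Mmp9 with miR-222-3p-EVs and the block had an unadjusted p under 0.05 but an adjusted p of 0.387 (DESeq2).

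**Figure D5:**
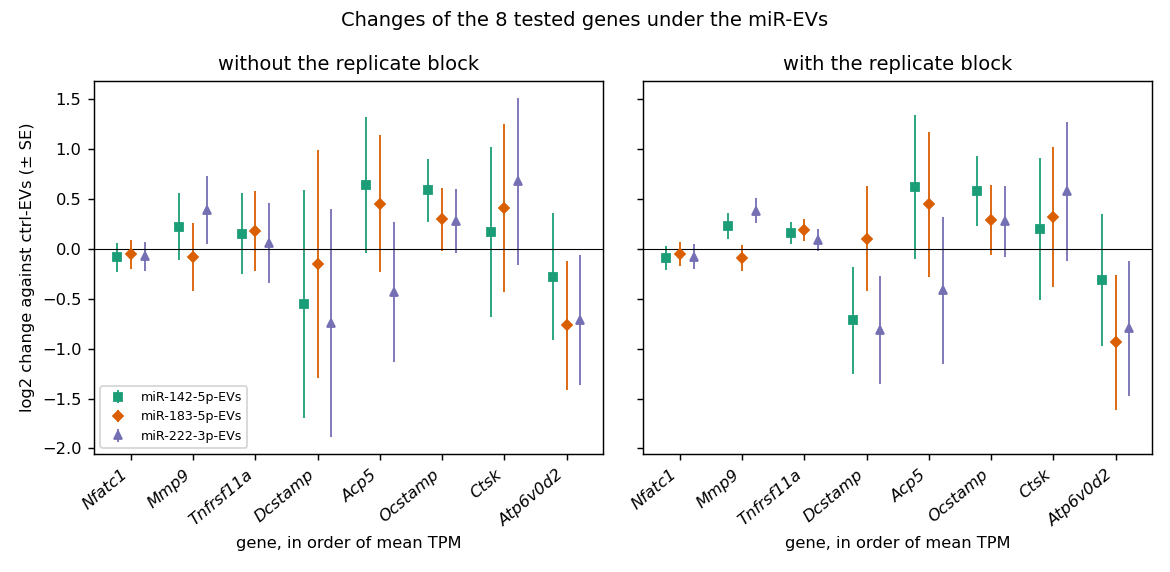
Log2 difference from ctrl-EVs (± SE) for the 8 tested genes, in order of mean TPM, one symbol per mimic, without the replicate block (left) and with it (right). The estimates for Nfatc1 lie within 0.1 of 0, and the error bars of Dcstamp, Mmp9 and Tnfrsf11a shorten with the block.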

How the data were processed

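The authors made stranded mRNA libraries, sequenced read pairs and quantified mouse transcripts with Salmon. The deposited files give per transcript an effective length, an estimated count (not always whole, and not scaled to depth) and a TPM. The build in the labels names the human genome, though the transcripts are of mouse. Transcripts (118783, of which 98.3% matched GENCODE vM21, GRCm38) were summed to 35944 genes, and unmatched ones held 0.570% to 0.642% of counts. Counts were rounded, and TPM-weighted effective lengths entered as an offset. Totals were 16294611 to 22974853 counts, and 3 counts, the floor used, were 0.131 to 0.184 CPM. Floors cover counting error only, as reads carried no molecular identifiers and are no independent molecules.

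The 13923 genes that reached 10 counts in 3 or more libraries entered DESeq2 1.42.0 (R 4.3.3), with two-sided Wald tests, in 1 model of the 4 groups for the EVs and with the title number added for the numbers (likelihood ratio test over the 3 numbers). Benjamini-Hochberg adjusted p under 0.05 was called, over all genes. Alternatives were edgeR 4.0.16 (quasi-likelihood), TMM factors, no count filter, no length offset, a replicate block, no treatment term and leaving out each library. The scripts were tested on simulated data. Same-numbered libraries correlated in their deviations from group means (0.409 to 0.797 over 18 pairs, against a mean of −0.287 over 36 other pairs), so the numbers in the titles pair the libraries. The 10 genes and the lists were chosen with earlier results of these data known. Besides the 10, each list's highest gene and the up to 3 called genes (mean of 50 normalized counts or more) of largest range across numbers were named, and the 3 genes most alike in normalized counts to each of the 3 best counted of the 10. Traf6, Tnfsf11, Tnfrsf11b, Prdm1, Atp6v0d1, Src, Trem2, Irf8, Alpl, Ibsp, Sp7 and Cldn5 were named for their role after their values were seen. So were Car2, Tcirg1, Snx10, Clcn7, Ostm1, Runx2, Col1a1, Dmp1, Adgre1, Cebpa, Mertk and Msr1. One gene of the restraint list is not reported here by name.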

Additional observations from a re-analysis of the deposited data

Results flagged for a closer look

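Among the 10 genes and 40 sets of 4 or 9 libraries, 4 results had 1 library far from the rest, where chance flags about 1 in 20 groups. Oscar was at 13.0 normalized counts in miR-222-3p-EVs replicate 1, against at most 6.18 in the other miR-EV libraries and 2.27 to 3.58 in the other libraries numbered 1, on 5 estimated counts. That value rests on the length correction, as miR-183-5p-EVs replicate 2 had 6 estimated counts and was at 6.18. Calcr was at 0.847 normalized counts in miR-183-5p-EVs replicate 1 and at 1.152 in replicate 2, each on 1 count, where the other libraries of that number were at 0. A single count beside 0 in the others is always flagged, so the rate of 1 in 20 does not hold for Calcr.

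Mmp9 moved apart between mimics. In 3 of 3 title numbers it was above the ctrl-EVs library with miR-142-5p-EVs and below it with miR-183-5p-EVs, and the mean differences lay 87.0 normalized counts apart. With miR-222-3p-EVs it was above in 3 of 3, and lay 141.5 normalized counts apart from miR-183-5p-EVs. These tallies hold in length-corrected counts. In number 3 the estimated counts of Mmp9 were 337 with ctrl-EVs, 297 under the miR-142-5p mimic and 270 under miR-222-3p, and in TPM miR-183-5p-EVs was at 8.845 against 8.313 with ctrl-EVs. The difference between mimics was not tested.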

How the results depend on the processing

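No alternative called any of the 8 genes in a comparison with ctrl-EVs, the replicate block included (0 of 8 in each, DESeq2 and edgeR). The block raised the calls among all genes from 1 to 8 under miR-142-5p-EVs, from 0 to 58 under miR-183-5p-EVs, from 0 to 5 for miR-222-3p-EVs and from 0 to 214 for all miR-EVs, while edgeR with the block called 0. The counts across title numbers, of the 8 genes and of the 5 lists, stayed within 1.5 times under each alternative, except that leaving out 1 library gave 2 to 4 of the 8 for number 3 against number 2, with 2 called without miR-142-5p-EVs replicate 2 or replicate 3. No count filter ended the Ctsk call across title numbers. The range of the Nfatc1 proximal share between numbers was 46.4 percentage points by TPM, 46.2 by estimated counts and 43.3 to 49.1 without any 1 library.

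The log2 changes of Tnfrsf11a, Mmp9 and Nfatc1 against ctrl-EVs and of Ctsk across numbers that turned direction are given here, and none of them was called. Those of Dcstamp against ctrl-EVs also turned, from −0.55 to 0.07 under miR-142-5p-EVs and from −0.15 to 0.20 under miR-183-5p-EVs without the length offset, and the latter to 0.10 with the replicate block. Without the length offset Tnfrsf11a was at −0.037 under miR-142-5p-EVs and −0.0039 under miR-222-3p-EVs. Nfatc1 was then at 0.0034 for the miR-142-5p mimic, 0.044 for miR-183-5p, 0.053 for miR-222-3p and 0.034 for the pooled miR-EVs, and with the replicate block and no length offset at 0.0034, 0.046, 0.054 and 0.035. Mmp9 with all miR-EVs was at −0.00042 with the replicate block and no length offset. Leaving out 1 library at a time gave Tnfrsf11a −0.18 to 0.50 under the miR-142-5p mimic, −0.14 to 0.53 under miR-183-5p, −0.22 to 0.41 under miR-222-3p and −0.10 to 0.48 over the pooled miR-EVs. It gave Nfatc1 −0.24 to 0.0036 with miR-142-5p-EVs, Mmp9 −0.35 to 0.18 with miR-183-5p-EVs and Ctsk −0.27 to 0.51 for number 3 against number 1. The causes were not tested. Depth limits Acp5, Ctsk, Atp6v0d2 and Dcstamp, and leaves Oscar and Calcr untested.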
